A study of Rattus norvegicus with 12 samples.

Results

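Lungs of rats that had received saline were compared between day 28 and day 14, to describe how far control lung drifted between the days and how far control rats differed from each other. The comparison used the 3 arrays labelled as saline at day 28 and the 3 labelled as saline at day 14, which are 6 of the 12 arrays of the study. All 6 came from male Wistar rats given 1 mL of saline into the trachea, with a separate rat for each array. The other 6 arrays came from rats given 1 mL of silicon dioxide at 50 mg/mL (50 mg/kg in the titles), 3 for each day, and were used for the common scale and for values set beside those of the controls. No transgene or other allele is named for any group, and the age of the rats at death is not given in the sources used here. The day 14 arrays are day 14 by their titles and time point, whereas the protocol text, which is the same for every array, speaks of 28 days only. The study's methods describe no group of 14 days and say that lungs were chosen for the arrays after histology, so how the day 14 lungs were chosen is not known.

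The arrays were single-colour Agilent arrays, where a spot shines in proportion to the labelled RNA held by its 60-base probe. Values below are log2 intensities after quantile normalisation over all 12 arrays. A saline array had 63.3% to 69.5% of its 51255 probes well above background and none saturated. Tests covered the 33388 probes that passed this limit on the 3 arrays of either day. In whole lung, fewer cells of a type and less RNA per cell cannot be told apart.

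Healthy lung RNA is a mixture from alveolar epithelium, a dense capillary bed, airway cells with cilia or secretory granules, resident macrophages, smooth muscle and the blood left in the vessels. Many lung genes also follow the circadian clock. In this loop CLOCK and BMAL1 activate genes through a DNA element called the E-box, among them the period genes and the nuclear receptors Nr1d1 and Nr1d2, whose proteins in turn repress Bmal1. The protein products of Dbp and Hlf act on a further element, the D-box, where NFIL3 opposes them. The hour at which the lungs were taken is not given in the sources used here.

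Gene names were known for 1099 genes only, from the part of the study's list of silica-responsive probes that could be read. That list had been selected by the authors on silica against saline at day 28, with the same 3 saline arrays of day 28 used here, so counts over named genes are not independent of these arrays. Probes of 3 clock and glucocorticoid response genes and of a transporter, whose values are described further on, are shown first, because a reader can place them in the transcript. They are written 5′ to 3′ as they stand on the array, in lower case. By RefSeq in the build GRCr8, Nr1d1 lies at chr10:84224599-84231812, Per3 at chr5:166740914-166778243, Zbtb16 at chr8:57885886-58073507 and Slco1a5 at chr4:176903387-176985589. The positions of the probes themselves were not analysed here. The last probe has no gene name here and is shown because it was the only probe called between the saline groups under any limma setting. Globin, Slfn, Cyp2, Slco1a, Mcpt and Defb genes belong to families of close copies, so a probe may also bind RNA of a relative.
Nr1d1, A_44_P175041: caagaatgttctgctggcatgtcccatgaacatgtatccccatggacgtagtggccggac
Per3, A_64_P119407: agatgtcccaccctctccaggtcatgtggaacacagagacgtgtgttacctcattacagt
Per3, CUST_R2_15909: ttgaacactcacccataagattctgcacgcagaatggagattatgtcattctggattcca
Zbtb16, A_44_P366142: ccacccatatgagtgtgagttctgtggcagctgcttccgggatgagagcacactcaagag
Slco1a5, A_44_P113879: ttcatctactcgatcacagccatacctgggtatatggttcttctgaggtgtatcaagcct
unnamed, CUST_R2_12719: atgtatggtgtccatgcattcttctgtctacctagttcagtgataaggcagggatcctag

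Distances between saline rats were largest in pairs that held a rat standing apart from its own day. For each pair of rats, the distance was taken as the median over the tested probes of the absolute log2 difference. Within day 28 the 3 distances were 0.144 between rats 2 and 3, 0.243 between rats 1 and 3 and 0.275 between rats 1 and 2. Within day 14 they were 0.142 between rats 1 and 3, 0.230 between rats 1 and 2 and 0.235 between rats 2 and 3. A single rat of each day, rat 1 of day 28 and rat 2 of day 14, therefore stood apart from its own group. The 9 distances between rats of different days ran from 0.169 to 0.296, with a mean of 0.236 ± 0.058 (SD, n = 9 pairs that share rats). The mean within a day was 0.221 ± 0.068 at day 28 and 0.203 ± 0.052 at day 14 (SD, n = 3 pairs each). Among the 4 pairs of different days that held neither outlying rat, the distance was 0.175 ± 0.008 (SD), against 0.144 and 0.142 for the single pairs left within a day. In the silica groups, scaled in the same way, the mean distance within a day was 0.177 ± 0.035 at day 28 and 0.253 ± 0.031 at day 14 (SD, n = 3 pairs each). All distances above 0.275, the highest within a day, involved an outlying rat. All 4 distances between days without these rats were above the 2 left within days. The outlying rats were picked from these same distances, so the pairs left within a day are the closest of their day. Neither comparison is therefore independent of that choice.

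**Figure D1:**
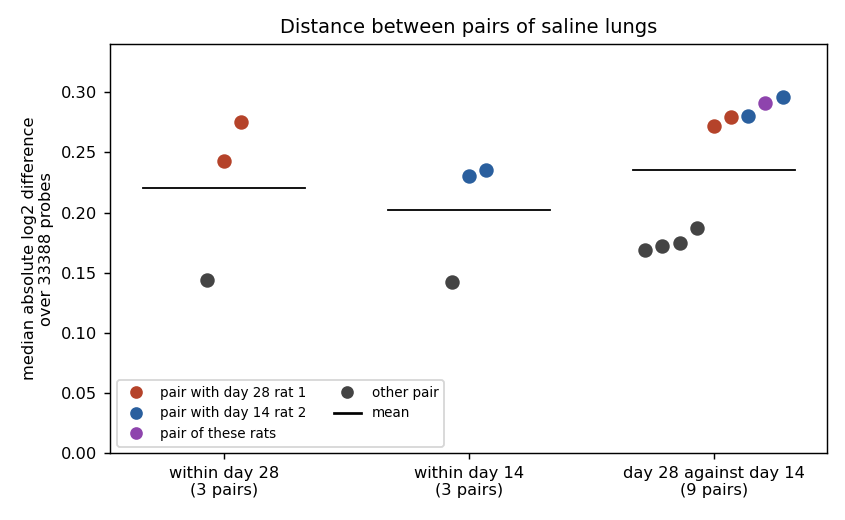
Median absolute log2 difference over the tested probes for each of the 15 pairs of saline lungs, by whether both rats belong to day 28, both to day 14, or to different days; points are pairs, colours mark pairs with day 28 rat 1 or day 14 rat 2, and lines are means. Every pair that holds an outlying rat lies at 0.230 or above, and every other pair lies at 0.187 or below. The outlying rats were picked from these same distances.

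Rat 1 of day 28 was hybridised on slide 1, together with the silica arrays of day 28, and the other 5 saline arrays were on slide 2. For this array the rat and the slide cannot be told apart. Rat 2 of day 14 shared its slide with the rats from which it differed. In limma's array weights, where 1 is average, rat 1 of day 28 received 0.298 and rat 2 of day 14 received 0.428, whereas the other 4 arrays received 0.956 to 3.172. The median SD of a probe between rats was 0.191 at day 28 and 0.175 at day 14. Without the outlying rat it was 0.102 and 0.101, but these values come from the closest pair of each day and restate its distance. A median SD from fewer rats also tends to be lower without any outlier.

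Single rats also set themselves apart in particular genes. Among the 30789 probes well above background on all 6 saline arrays, rat 1 of day 28 lay at least 2-fold above all 5 other rats in 117 probes and at least 2-fold below all of them in 199. None of these 316 probes was among the named ones. The names came from a list selected by fold and p-value with the same day 28 arrays, so this absence is not independent of that selection. Rat 2 of day 28 lay at least 2-fold above all others in 60 probes and below in 9. The 60 included the probes of 7 named genes, among them the haemoglobin genes Hbe2 and LOC287167, the red cell spectrin gene Sptb, the airway genes Bpifb1 and Cyp2a3, and Zbtb16. Rat 2 of day 14 lay above in 21 probes and below in 29, and the genes at least 2-fold below included Mcpt1l1, Mmp9, RGD1566226 and Serpina1. The other 3 rats stood apart in 11 to 23 probes each.

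No probe passed the test between days. A call needed a fold of 2 and an adjusted p no higher than 0.05, and limma made 0 calls among 33388 probes (0%), with a lowest adjusted p of 0.41. At an unadjusted p under 0.05 limma counted 3477 probes (10.4%), of which 1777 (5.32%) were higher and 1700 (5.09%) lower on day 28. The methods' t-test, at an unadjusted p of at most 0.05 and a fold of at least 2, counted 41 probes higher and 60 lower, and 0 after Benjamini-Hochberg adjustment. The median standard error of a difference was 0.163, and the 5th and 95th percentiles of the differences were -0.49 and 0.42 on the log2 scale. Without rat 1 of day 28, limma again called 0 probes (0%), with 3715 at an unadjusted p under 0.05 and a lowest adjusted p of 0.093. An exact permutation test of a single gene cannot go below 0.1 with 3 rats a day, so a difference that misses the test here is not shown to be absent. The labels give no cage, litter or extraction batch, so p-values measure only the spread between these rats. In the study's methods, which describe no day 14 group, rats were caged with their own group, so cage and group cannot be told apart.

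With slide as a block over all 12 arrays, limma called 1 probe (0.003%), the unnamed CUST_R2_12719. Its log2 values were 3.39, 2.07 and 1.82 on day 28 and 4.19, 4.37 and 4.09 on day 14, where the silica arrays of day 28 had a mean of 4.80 and those of day 14 one of 4.47. On day 14 each of the 3 saline arrays had it well above background and on day 28 none did, so day 28 has only a bound and was at least 1.35-fold lower. The block fit gave a difference of -2.27 (SE 0.20, limma adjusted p = 0.02), and the 6 saline arrays alone gave -1.79 (SE 0.39, limma adjusted p = 0.41).

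Because no gene was called, the named genes are described by whether the 3 values of a day overlapped those of the other. Over all tested probes, the 3 arrays of day 28 lay above the 3 of day 14 in 11.1% and below them in 8.04%. Among the 1020 named genes tested, 176 (17.3%) were higher without overlap and 74 (7.25%) lower. The named genes were selected with the day 28 arrays, so the larger share of higher genes is not independent of that selection, and the same holds for every list of named genes below. Without rat 1 of day 28, where only 2 arrays of that day are left, the shares over all tested probes were 18.7% higher and 16% lower. Of the tested named genes, 20 had means at least 2-fold apart.

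Clock genes held the largest named difference. Nr1d1 read 11.15, 11.12 and 10.35 on day 28 and 8.57, 8.12 and 9.56 on day 14, so that every rat of day 28 was above every rat of day 14. Its means were 10.87 ± 0.46 and 8.75 ± 0.74 (SD, n = 3 each), a difference of 2.12 or 4.35-fold (SE 0.39, 95% interval 1.20 to 3.04, limma adjusted p = 0.41; exact two-sided permutation p = 0.1, the smallest possible). On slide 2 alone the difference was 1.98.

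Nr1d2, which encodes the related receptor, read 6.4, 6.0 and 5.66 against 5.46, 4.94 and 5.4, again without overlap, and differed by 0.75 (SE 0.23, limma adjusted p = 0.42). Per3, a period gene, was measured by both probes printed above. The brighter probe read 9.38, 9.46 and 9.0 on day 28 and 8.76, 8.97 and 8.96 on day 14, a difference of 0.38 (SE 0.16, limma adjusted p = 0.48). The other Per3 probe, CUST_R2_15909, read 9.04, 8.62 and 8.15 against 7.23, 7.17 and 7.76, a difference of 1.21 (SE 0.26, limma adjusted p = 0.41). Both Per3 probes were higher without overlap, by unequal amounts. The E-box repressors varied more within a day than between days. Bhlhe41 read 8.51, 8.74 and 8.11 on day 28 and 8.55, 7.25 and 7.79 on day 14, and Bhlhe40 differed by 0.22 (SE 0.21) and Ciart by 0.18 (SE 0.18). Nfil3 was the only core clock gene tested that was lower, with 4.93, 5.92 and 5.93 on day 28 against 6.43, 5.86 and 6.4, a difference of -0.63 (SE 0.30) with overlap.

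Among the clock-driven output genes, Klf9, a zinc finger factor that also responds to glucocorticoids, read 9.59, 9.58 and 9.29 on day 28 and 8.95, 8.81 and 8.94 on day 14. The groups did not overlap, and the difference was 0.58 (SE 0.13, limma adjusted p = 0.41). LOC690286, described as similar to hepatic leukaemia factor (Hlf), had 8.82, 7.94 and 7.83 on day 28 and 7.35, 7.73 and 7.52 on day 14, a difference of 0.67. Its dimmer probe gave 1.03, but was well above background in only 1 of the 3 lungs of day 14. Dbp, the best known output gene of the clock, overlapped between days, with 10.83, 10.70 and 9.94 against 10.12, 10.48 and 10.04. Avpr1a, a vasopressin receptor, was higher by 0.50 without overlap, and the coactivators Ppargc1a and Ppargc1b differed by 0.11 and 0.16 with overlap. In all, 3 of 7 tested core clock genes and 3 of 6 output genes were higher without overlap, and 0 were lower. The shares were 11.1% higher and 8.04% lower over all probes, and 17.3% and 7.25% over named genes. Their median differences were 0.38 and 0.39, against 0.00 over all tested probes, and 0.33 and 0.32 without rat 1 of day 28.

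**Figure D2:**
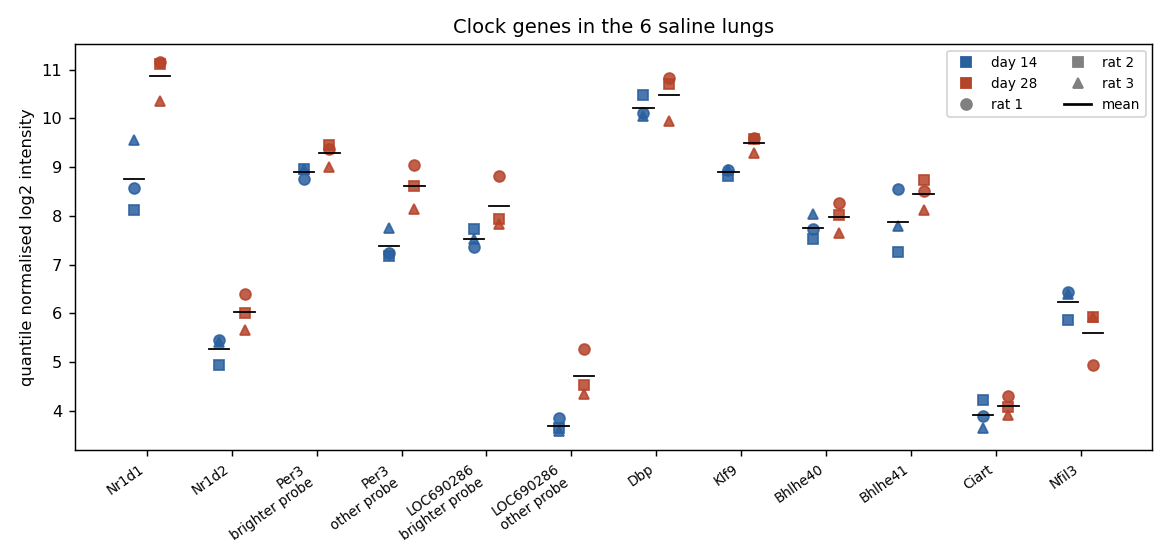
Quantile normalised log2 intensity of 12 clock probes in each of the 6 saline lungs, with blue for day 14, red for day 28, a symbol for each rat number and a line for each mean. Nr1d1 shows the widest gap, from 9.56 at the top of day 14 to 10.35 at the bottom of day 28, and Nfil3 is the only gene whose mean is lower on day 28.

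Promoters of the clock genes were looked up in RefSeq (GRCr8), and 12 of the 13 tested genes of the clock lists had an entry. In the 250 bases before the start, the E-box CACGTG, which reads the same on both strands, was present in 4 of the 12, Nr1d1, Ciart, Bhlhe40 and Bhlhe41, a gene being counted when any of its entries matched. It was present in 5.59% of 33469 promoters of the same length. That share, like those of the other elements, counts single entries, of which a gene can have more than 1. The D-box TTATGTAA was found on either strand in 0 of the 12 (0.828% of all promoters). AGGTCA, the element that nuclear receptors of the Nr1d group bind, was found on either strand in 1 of the 12, Nr1d2 (14.1% of all promoters). The stretches of Nr1d1, Nr1d2 and Ciart are printed because they hold the matches, with the matched letters in capitals. Nr1d1 has more than 1 start in RefSeq, and the stretch shown is the one with an E-box, at chr10:84229455-84229704 on the minus strand. Nr1d2 is at chr15:9954784-9955033 on the plus strand, and Ciart, with 3 E-boxes, at chr2:186112247-186112496 on the minus strand. A match only describes the letters of the stretch, and the arrays do not measure binding.
Nr1d1: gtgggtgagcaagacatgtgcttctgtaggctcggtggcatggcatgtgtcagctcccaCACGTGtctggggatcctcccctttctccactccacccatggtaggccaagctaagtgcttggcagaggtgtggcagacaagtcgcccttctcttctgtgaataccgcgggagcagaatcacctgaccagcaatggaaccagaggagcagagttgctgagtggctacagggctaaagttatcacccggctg
Nr1d2: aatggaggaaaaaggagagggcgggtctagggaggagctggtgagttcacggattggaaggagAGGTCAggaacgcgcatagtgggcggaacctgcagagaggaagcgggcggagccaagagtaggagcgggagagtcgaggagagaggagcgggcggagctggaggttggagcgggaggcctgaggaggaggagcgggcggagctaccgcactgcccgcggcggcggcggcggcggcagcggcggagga
Ciart: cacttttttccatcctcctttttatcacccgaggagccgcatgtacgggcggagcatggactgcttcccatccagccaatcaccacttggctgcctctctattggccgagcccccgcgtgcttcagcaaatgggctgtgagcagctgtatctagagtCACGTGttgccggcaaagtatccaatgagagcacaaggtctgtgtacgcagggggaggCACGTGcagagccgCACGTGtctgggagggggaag
Ciart, with the most E-boxes, differed by 0.18 between days, and Nr1d1, with a single one, by 2.12.

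Of the 9 tested genes known to respond to glucocorticoids, 2 were higher without overlap and 0 lower (all probes 11.1% higher and 8.04% lower), and their median difference was 0.00. Without rat 1 of day 28, 2 were higher and 2 lower (all probes 18.7% higher and 16% lower). Zbtb16, a zinc finger transcription factor that glucocorticoids induce strongly, read 9.80, 10.82 and 9.66 on day 28 and 8.88, 7.95 and 8.85 on day 14. The groups did not overlap, and the difference was 1.53 or 2.89-fold (SE 0.37, limma adjusted p = 0.41; exact two-sided permutation p = 0.1), with 1.68 on slide 2 alone. Klf9, described above, was the other gene. Sgk1, a kinase of the same list, lay the other way, with 10.79, 10.71 and 10.47 against 11.42, 10.75 and 11.27, overlapping in rat 2 of day 14. Of 10 immediate early and stress genes, 1 was higher without overlap and 0 lower (all probes 11.1% higher and 8.04% lower), with a median of 0.14. Sqstm1, an autophagy receptor, was that gene at 0.28, but its other probe read -0.10. Hmox1, the haem oxygenase, differed by 0.25 (SE 0.26) and Zfand2a by -0.20 (SE 0.26).

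Outside these lists, the genes with the largest higher values on day 28 were transporters, signalling genes and genes of uncertain role, each without overlap and above background in all 6 lungs. Slco1a5, an organic anion transporter, read 7.68, 7.09 and 7.30 against 6.23, 6.4 and 6.4, a difference of 1.01 (SE 0.17, limma adjusted p = 0.41). Its day 14 values lay within 0.17 of each other. Abcb1b, a drug efflux pump, read 10.01, 10.29 and 10.18 on day 28 but spread from 7.80 to 9.93 on day 14, so that its difference of 1.25 (SE 0.48) rested on day 14 rats that differed by more than the days did. S100b, a calcium-binding protein, differed by 1.19, and its rat 3 of day 14, at 5.60, came close to the lowest rat of day 28, at 5.73. RGD1566226, which RefSeq now calls Sirpb3, differed by 1.40 (SE 0.40), with 5.43 in rat 2 of day 14. The others were Ehd3, an endocytic ATPase, at 0.94, LOC103694995 at 0.93, PCOLCE2, which enhances procollagen cleavage, at 0.91, Fam46b at 0.91 and Dll1, a Notch ligand, at 0.90. The genes of this paragraph had limma adjusted p from 0.41 to 0.46.

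Among genes without overlap and above background in all 6 lungs, those with the largest lower values were Gjb2, Pcsk4, Mobp, Vps37d and Slpi. Gjb2, a gap junction subunit, read 4.54, 4.41 and 3.81 on day 28 and 5.73, 4.88 and 5.66 on day 14, a difference of -1.17 (SE 0.28, limma adjusted p = 0.41). Slpi, an inhibitor of neutrophil elastase, read 7.56, 8.09 and 8.37 against 9.57, 8.75 and 8.78, a difference of -1.02 (SE 0.29). Pcsk4, a proprotein convertase, read 8.43, 8.21 and 8.22 against 8.76, 10.18 and 9.24, and differed by -1.11. In Pcsk4, in Mobp, named for myelin, at -1.06, in Vps37d, a subunit of the endosomal sorting machinery, at -1.06 and in Ces2a, a carboxylesterase, at -0.83, rat 2 of day 14 held the highest value. Trpm5, a cation channel of tuft cells, was lower by 0.85 and Gnmt, a methyltransferase, by 0.78. Adamts4, a matrix protease, was well above background in the 3 lungs of day 14 and in none of day 28, so it was at least 1.61-fold lower on day 28 (measured means 2.69 and 4.48, limma adjusted p = 0.41).

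**Figure D3:**
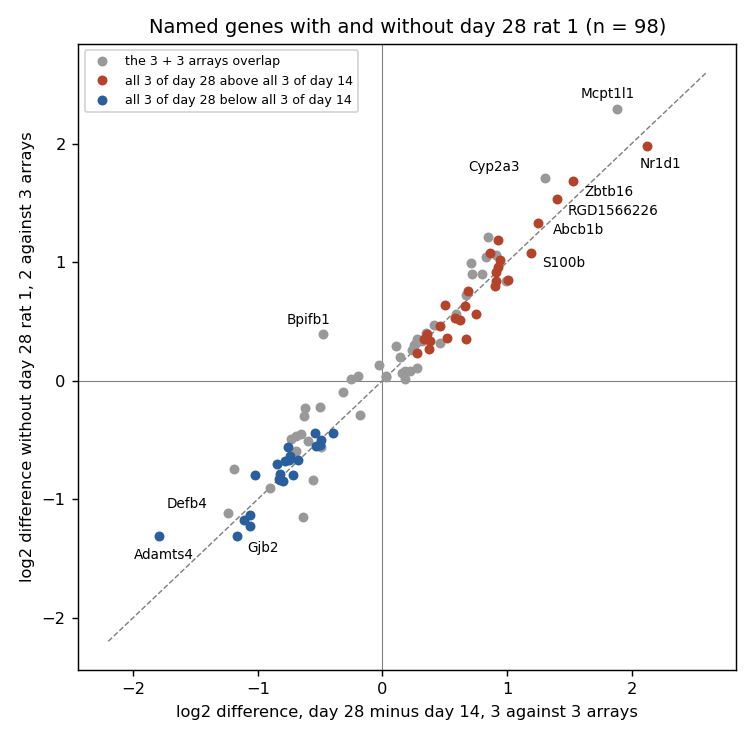
Log2 difference between day 28 and day 14 for the 98 genes chosen by rule, with all 3 rats of day 28 on the horizontal axis and without rat 1 of day 28, the array on the other slide, on the vertical axis. Points near the dashed line, such as Nr1d1 at 2.12 and 1.98, read alike both ways, and Bpifb1, at -0.48 and 0.39, turned its sign.

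No gene of the interferon response was called. Of 15 members tested, 7 were lower without overlap (8.04% of all probes, 7.25% of named genes) and 0 higher (11.1% and 17.3%). The median was -0.50, against 0.00 over all tested probes and 0.08 over tested named genes, and -0.55 without rat 1 of day 28. Slfn1, a schlafen gene, read 4.58, 5.06 and 5.33 on day 28 and 5.87, 5.50 and 5.88 on day 14, a difference of -0.76 (SE 0.22, limma adjusted p = 0.41). Oas3, an antiviral oligoadenylate synthetase, read 6.57, 6.98 and 6.80 against 7.57, 7.28 and 7.73, a difference of -0.74 (SE 0.17). Slfn13 read 7.75, 7.18 and 7.82 against 8.36, 8.23 and 8.32, a difference of -0.72 (SE 0.19). The other 4, named after their values were seen, were Epsti1 at -0.67, Slfn2 at -0.61, the chemokine Cxcl9 at -0.59 and the cytokine signalling inhibitor Socs1 at -0.53. The 8 members that overlapped lay between -0.50 (Usp18) and 0.09 (Cd274). By rat, the mean of the list was 0.36 above its overall mean in rat 1 of day 14 and 0.30 above in rat 3, but 0.06 below in rat 2 of day 14, the same as in rat 3 of day 28. Rat 2 of day 28, at 0.35 below, was the lowest, and without it the median of the list was -0.28.

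GAAANNGAA, the core of the element through which interferon acts, was searched on both strands of the 250 bases before the start. It was present in 4 of the 9 tested members with a RefSeq promoter, Oas3, Epsti1, Socs1 and Cd274. A gene was counted when any of its entries matched, whereas the share over all promoters, 8.12%, counts single entries. The stretch of Oas3, at chr12:41439482-41439731 on the plus strand, is printed because Oas3 is among the members that differed most, and its capitals mark 2 overlapping matches.
Oas3: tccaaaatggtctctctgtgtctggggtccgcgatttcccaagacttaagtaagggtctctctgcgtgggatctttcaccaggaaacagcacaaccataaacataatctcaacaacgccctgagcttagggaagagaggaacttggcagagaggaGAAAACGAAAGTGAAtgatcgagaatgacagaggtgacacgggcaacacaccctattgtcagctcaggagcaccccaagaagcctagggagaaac

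Other immune lists held 2 or 3 genes each that were lower without overlap, beside 8.04% of all probes. Of 12 cytokine and chemokine genes tested, 3 were lower without overlap and 0 higher (all probes 11.1% higher and 8.04% lower), with a median of -0.07. Cxcl3, a neutrophil chemokine, read 6.79, 6.68 and 6.95 on day 28 and 7.45, 7.49 and 7.53 on day 14, a difference of -0.68 (SE 0.12, limma adjusted p = 0.41) with little spread on either day. Ccl4, a macrophage and lymphocyte chemokine, read 5.12, 4.82 and 5.12 against 5.72, 5.49 and 6.27, a difference of -0.80 (SE 0.22). Of 11 lymphocyte and plasma cell genes, 2 were lower without overlap, the T cell coreceptor Cd8a at -0.75 (SE 0.19) and Sh2d1b, an adaptor of natural killer cells, at -0.40 (SE 0.15), and the median was -0.14, or -0.04 without rat 1 of day 28. Cd180, a receptor of B cells and macrophages, was lower by 0.82 (SE 0.20) without overlap. Of 20 neutrophil and monocyte genes, 2 were lower without overlap (all probes 8.04%), with a median of -0.12, of which Clec4a3 differed more, by -0.54. Of 19 macrophage genes, C1qa at -0.49 and Aif1 at -0.50 were lower without overlap, while Trem2 was higher by 0.46 with overlap and the median was 0.05. In these 4 lists 0 genes were higher without overlap with all 6 rats, beside 11.1% of all probes. Without rat 1 of day 28, 3 of the 19 macrophage genes were higher and 4 lower (all probes 18.7% higher and 16% lower). The medians of the cytokine, neutrophil and macrophage lists were then -0.04, -0.06 and 0.10.

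Of the mast cell genes, 3 were tested, and Mcpt1l1 differed widely between rats of the same day. Mcpt1l1, a mast cell protease, read 6.31, 7.17 and 7.95 on day 28 and 6.54, 4.10 and 5.16 on day 14. Its difference of 1.88 (SE 0.65, 95% interval 0.35 to 3.40) was the second largest of the named genes tested, but the days overlapped, in rat 1 of day 28. Milr1, an inhibitory receptor of mast cells, went the other way at -0.69 (SE 0.28), and Gata2 differed by 0.18. The list had a median of 0.18 and 0 of 3 genes without overlap. Without rat 1 of day 28 the median was 0.01, and Mcpt1l1 was higher without overlap.

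Haemoglobin followed single rats. Hbb-b1 read 14.31, 15.44 and 14.29 on day 28 and 13.57, 13.72 and 14.60 on day 14, Hbe2 read 13.10, 14.65 and 13.24 against 12.52, 12.81 and 13.54, and the alpha globin LOC287167 read 8.76, 10.00 and 8.80 against 7.55, 8.55 and 8.98. In each of the 3 globins, rat 2 of day 28 was the highest and rat 1 of day 14 the lowest. The differences of 0.72, 0.71 and 0.83 (SE 0.39, 0.45 and 0.45) were smaller than the range of the rats of either day. Sptb, the red cell beta spectrin, was also highest in rat 2 of day 28, at 6.01, and lowest in rat 1 of day 14, at 3.83, and did not overlap at 0.86. Sptan1, a spectrin of many cell types, was higher by 0.33 without overlap, and the platelet chemokine Ppbp differed by -0.03.

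No gene of the vessel wall was called. Of 34 endothelial genes tested, 9 were higher without overlap (11.1% of all probes, 17.3% of named genes) and 1 lower (8.04% and 7.25%), with a median of 0.24. Flt1, a receptor for vascular endothelial growth factor, read 10.53, 10.09 and 10.32 on day 28 and 9.75, 9.56 and 9.78 on day 14, a difference of 0.62 (SE 0.15, limma adjusted p = 0.41). Ace, the angiotensin-converting enzyme of lung capillaries, read 13.94, 13.30 and 13.65 against 13.15, 12.99 and 13.20, a difference of 0.52 (SE 0.18). Esm1 differed by 0.67 with overlap and a wide error (SE 0.59), and was well above background in only 1 of the 3 lungs of day 14. Rat 1 of day 28 held the highest mean of this list, 0.22 above the overall mean, and rat 2 of day 14 the lowest, at 0.28 below, and without the former the median was 0.19. Of 12 smooth muscle and pericyte genes, 4 were higher without overlap and 0 lower (all probes 11.1% higher and 8.04% lower), with a median of 0.18, and 7 were higher without rat 1 of day 28 (all probes 18.7%). Kcna5, a potassium channel of vascular muscle, was higher by 0.69 (SE 0.23), and Pde5a, which degrades cyclic GMP, by 0.36 (SE 0.15), although the other Pde5a probe read -0.04. Kcnma1 differed by 0.99 (SE 0.35) with overlap, and was well above background in only 1 of the 3 lungs of day 14. Lyve1, the only lymphatic marker named, read 10.90 to 11.25 on day 28, with a mean of 11.05 against 10.82 on day 14, and overlapped.

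Epithelial genes gave differences in both directions. The 8 alveolar genes tested had a median of 0.13, and 0 were without overlap with all 6 rats. Without rat 1 of day 28 the median was 0.27, and 4 of the 8 were higher without overlap (all probes 18.7%). The water channel Aqp5 of type I cells, which was bright in every lung at 12.05 to 12.88, differed by 0.35 (SE 0.18). Of 16 club and airway secretory genes, 6 were higher without overlap and 1 lower (all probes 11.1% higher and 8.04% lower), with a median of 0.19. Within them Cyp2a3, an airway cytochrome P450, read 5.71, 8.59 and 5.33 on day 28 and 4.64, 5.13 and 5.97 on day 14, so that rat 2 of day 28 alone was more than 4-fold above every other rat. Cyp2e1, a related enzyme, was less uneven, with 8.09, 8.25 and 8.86 against 7.10, 7.25 and 8.14, and differed by 0.91 (SE 0.32). Of 13 ciliated cell genes, 2 were lower without overlap and 1 higher (all probes 11.1% higher and 8.04% lower), with a median of -0.27, or -0.45 without rat 1 of day 28. Rp1, a microtubule protein of cilia, was lower by 0.82 (SE 0.23) without overlap, and Fam227a and Rsph1, a radial spoke protein, differed by -0.90 and -0.73 with overlap. The ciliated list was highest in rat 2 of day 14, at 0.33 above its mean, and low in rats 1 and 3 of day 28, at 0.28 and 0.29 below.

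**Figure D4:**
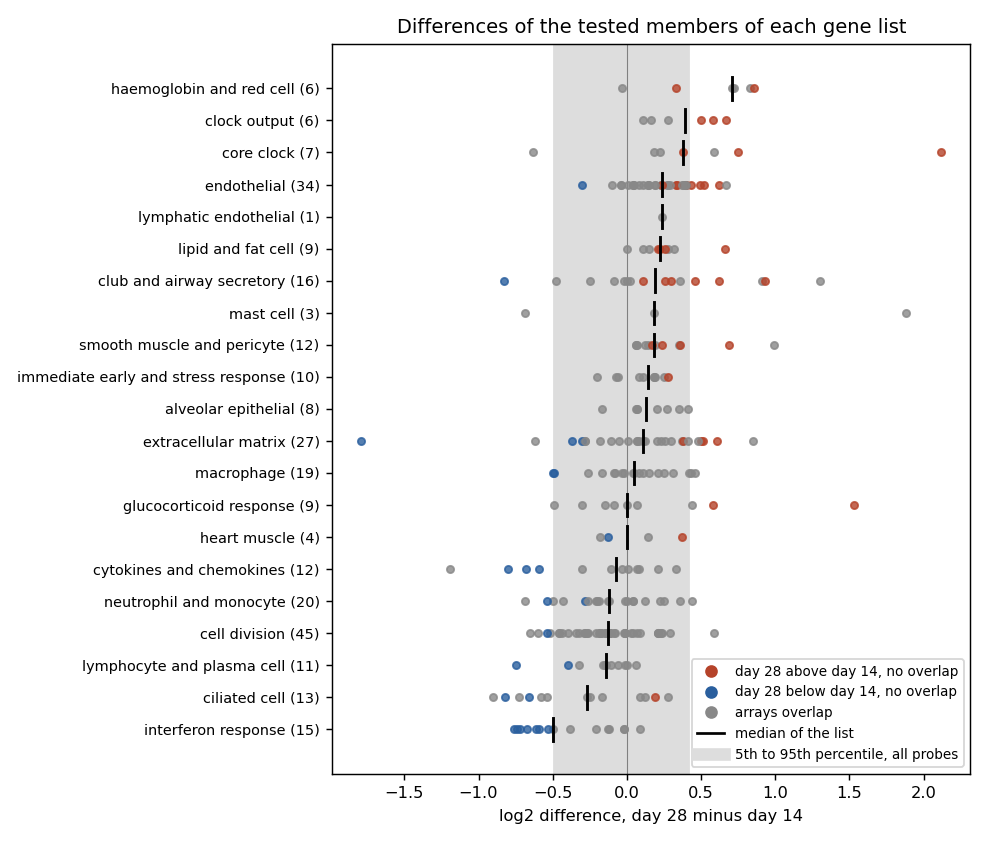
Log2 difference between day 28 and day 14 for each tested member of 21 gene lists, with the number tested in brackets, the median of each list as a black bar and the range from -0.49 to 0.42 between the 5th and 95th percentiles of all probes in grey. The medians run from -0.50 for the interferon response to 0.71 for haemoglobin and red cell genes.

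Of 45 cell division genes, 1 was lower and 0 were higher without overlap (all probes 11.1% higher and 8.04% lower), with a median of -0.13, or -0.03 without rat 1 of day 28. Kifc1 and Cenpa differed by -0.65 and -0.60 and Cenpw by 0.59, each with overlap. Of 27 matrix genes, 4 were higher and 3 lower without overlap (all probes 11.1% higher and 8.04% lower), with a median of 0.11. Col1a1, the main fibrillar collagen chain, read 7.85, 9.37 and 8.65 against 9.30, 9.14 and 9.29, so that its difference of -0.62 came with a wide spread on day 28. The Col1a1 difference was -0.23 without rat 1 of day 28 and -0.99 without rat 2 of day 28. Mmp9 differed by 0.85 (SE 0.48) with overlap. Of 9 lipid genes, 4 were higher without overlap and 0 lower (all probes 11.1% higher and 8.04% lower), with a median of 0.22, and 7 were higher without rat 1 of day 28 (all probes 18.7%). The heart muscle list, with 4 genes tested, had a median of 0.00.

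**Figure D5:**
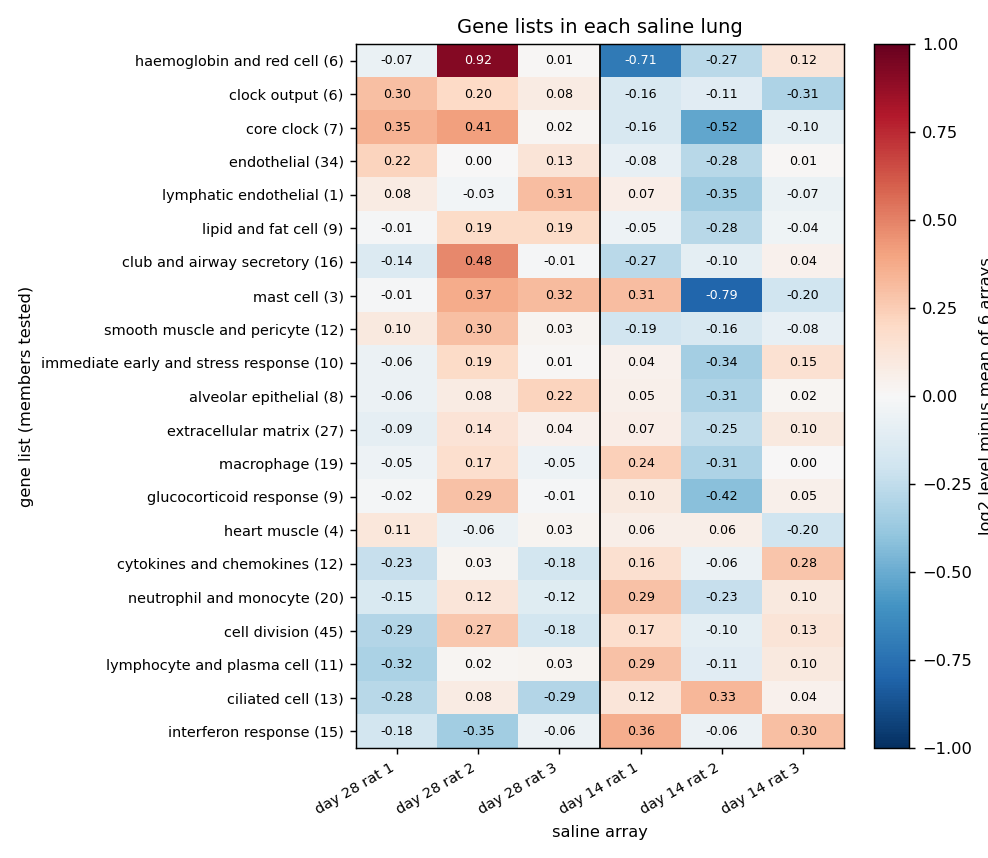
Mean log2 level of each gene list in each saline lung, minus the mean of that list over the 6 lungs, with the number of members tested in brackets and red above the mean. Rat 2 of day 28 is highest for haemoglobin and red cell genes at 0.92, and rat 2 of day 14 is lowest for mast cell genes at -0.79.

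Spread between control rats differed widely from gene to gene. Pooled over both days, and among named genes above background in all 6 lungs, the SD between rats was largest for Bpifb1, a secreted airway defence protein, at 1.74, followed by Cyp2a3 at 1.35, Mcpt1l1 at 1.04, Ly6i at 0.92, the club cell enzyme Cyp2f4 at 0.86, the beta-defensin Defb4 at 0.81, LOC501317 at 0.79 and Serpina1, the alpha-1 antitrypsin gene, at 0.77. Over all tested probes the pooled SD had a median of 0.204, and a 95th percentile of 0.548. Bpifb1 read 5.38, 9.76 and 6.24 on day 28 and 6.75, 7.64 and 8.42 on day 14, a range of more than 16-fold among lungs that had received only saline. Defb4 read 9.19, 9.61 and 9.48 on day 28 but 9.37, 11.20 and 11.42 on day 14, with rat 1 of day 14 at the level of day 28. Serpina1 was even in 5 rats, at 9.83 to 10.24, and read 8.07 in rat 2 of day 14. The steadiest named genes were Slc12a7, an ion cotransporter, and Sema6d, a semaphorin, with an SD of 0.03 each. Fmo2, the main flavin monooxygenase of lung, had an SD of 0.04, and read 11.25, 11.24 and 11.28 on day 28 and 10.79, 10.76 and 10.85 on day 14. Its difference of 0.46 (SE 0.11, limma adjusted p = 0.41) was small in size and large beside the spread of its own rats. Fmo2 was named for that small spread, so setting the difference beside it is not independent of the choice. LOC685976 was alike, with an SD of 0.04 and a difference of -0.53.

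Silica lungs gave values of the same contrast, although all silica arrays of day 28 were on slide 1 and all of day 14 on slide 2, so day and slide cannot be told apart there. Between the silica groups limma called 151 probes higher (0.443%) and 818 lower (2.4%) on day 28, where it called 0 between the saline groups. The difference between the saline and the silica contrast was past an adjusted p of 0.05 in 0 of 34097 probes (0%; 3386 at an unadjusted p under 0.05, lowest adjusted p 0.057), and with slide as a block in 4 (0.0117%). Nr1d1 had a mean of 7.93 in both silica groups, beside 10.87 and 8.75 in the saline groups, and its contrasts differed by 2.12 (SE 0.89, limma adjusted p = 0.49). Zbtb16 was 1.5 higher on day 28 in silica lungs (limma adjusted p = 0.025) and 1.53 higher in saline lungs, a difference of 0.03 (SE 0.49, limma adjusted p = 0.99). Of the 12 named genes with the largest lower values in saline lungs among those without overlap and above background in all 6, 5 were also called lower on day 28 in silica lungs, Pcsk4, Vps37d, Mobp, Ces2a and Trpm5, by 1.69, 1.71, 1.70, 1.70 and 1.02 (limma adjusted p from 0.013 to 0.026). Over all probes 2.4% were called lower, and these 5 were named from a list selected on silica against saline at day 28. Their low silica values of day 28 are therefore not independent of that selection. For these 5 genes the saline and silica contrasts differed by 0.17 to 0.87, with limma adjusted p from 0.52 to 0.89.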

How the data were processed

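Lung RNA of 12 rats was hybridised to Agilent single-colour arrays, 6 of them from saline rats. The authors deposited spot intensities from Feature Extraction (version 10.7.1.1 per the labels), which correct background and slide gradients and are not normalised between arrays. A table of normalised log2 signals, also deposited, was used as an alternative (98.8% of its values lay within 0.01 of those used). Control and outlier spots were left out, spots of a probe averaged, and log2 processed signals quantile normalised over 12 arrays. Probes well above background on all 3 arrays of a day were tested with limma 3.58.1 (lmFit, eBayes; R 4.3.3) and Benjamini-Hochberg adjustment, and the fits were tested on simulated data. Calls needed a fold of 2 and an adjusted p no higher than 0.05. The number of arrays limits the precision. Differences are day 28 minus day 14.

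Names came from 1279 rows of the authors' list (1050 accessions in RefSeq GRCr8). That list also holds the authors' fold changes and p-values, which were not used. The brightest probe stood for a gene. The genes named are the 12 highest and 12 lowest without overlap and well above background on all 6 arrays, all clock and red cell genes, the 3 largest absolute differences of each other list, and the 8 largest and 4 smallest SDs between rats, of which 2 genes are not reported here. Members and lists were chosen with earlier results of these data known. Alternatives covered normalisation, background, filter, slide, array weights, replicate block, the methods' t-test and leaving out arrays. Python 3.11.15, pandas 2.3.3, scipy 1.17.1 and matplotlib 3.10.9 were used.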

Additional observations from a re-analysis of the deposited data

Results flagged for a closer look

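With slide as a block, the contrast of day 28 against day 14 differed between saline and silica lungs in 4 probes, by 3.27 in A_64_P120050 (limma adjusted p = 0.014), 2.75 in A_43_P17734 (limma adjusted p = 0.028), -2.43 in A_44_P729621 (limma adjusted p = 0.028) and -2.44 in Fam111a (limma adjusted p = 0.033). In each, rat 1 of day 28, the only saline lung on slide 1, lay far from the other saline rats. It read 8.24 in A_64_P120050 against 4.70 to 5.13 in the other 5, 9.59 in A_43_P17734 against 6.17 to 6.82, 2.18 in A_44_P729621 against 4.12 to 4.88, and 1.73 in Fam111a, which was not well above background on any saline array, against 3.0 to 3.28. Without the block, the adjusted p of these 4 probes was 0.39 to 0.81.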

How the results depend on the processing

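The count of called probes stayed at 0 under other normalisations, backgrounds and filters, with array weights, by adjusted p alone, without any 1 of the 6 rats (0 to 0 in each direction), and without rat 1 of day 28 together with rat 2 of day 14, an alternative chosen after seeing the data. It was 1, lower on day 28, with slide as a block over 12 arrays, and 101 by the methods' t-test at an unadjusted p, 41 higher and 60 lower. With the replicate number as a block it was 0. Same-numbered rats did not deviate together (correlations -0.15, -0.24 and 0.08), so the numbers were not taken to pair the samples. Normexp background correction reduced the mean distance between rats to 0.135 within day 28, 0.121 within day 14 and 0.142 between days, and the 5th and 95th percentiles of the differences to -0.29 and 0.26. Leaving out 1 rat gave 0.144 to 0.275 within day 28, 0.142 to 0.235 within day 14 and 0.209 to 0.250 between days, and leaving out both outlying rats gave 0.175 between days.

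For the 98 named genes, 25 of 1962 values under alternatives had the opposite sign, in 12 genes, and 7 genes (Adamts4, Gjb2, Nr1d1, S100b, Slco1a5, Slpi and Zbtb16) passed the methods' t-test at its unadjusted threshold. With slide as a block, and likewise without rat 1 of day 28, Bpifb1 became 0.39, Cyp2f4 0.01, Ppbp 0.13 and Zfand2a 0.04. Without both outlying rats, Bpifb1 became 0.41, Cyp2f4 0.17, Ppbp 0.22, Bhlhe40 -0.04 and Gata2 -0.08. With array weights, Bhlhe40 became -0.05, Gata2 -0.01, Trem2 -0.01 and Ppbp 0.09. Leaving out 1 rat at a time, the sign turned in 7 genes, whose differences ran from -0.77 to 0.09 (Bank1), -1.80 to 0.39 (Bpifb1), -0.92 to 0.15 (Cyp2f4), -0.03 to 0.45 (Hmox1), -0.31 to 0.16 (Ppbp), -0.42 to 0.04 (Rbm20) and -0.41 to 0.04 (Zfand2a), and Gata2 kept its sign at 0.01 to 0.27 and Bhlhe40 at 0.08 to 0.39. Other probes read -0.04 for Pde5a and -0.10 for Sqstm1. Of the list medians, 7 of 336 values moved by more than 1 SD between rats, and that of the interferon list ranged from -0.68 to -0.28 among these. The cause of these moves was not tested.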
